A study of Mus musculus with 20 samples.

Results

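Misc and SMP cells of wild-type mouse leg muscle were compared gene by gene across 6 RNA libraries, 4 of Misc WT and 2 of SMP WT, out of 20 libraries in the series. The 6 were chosen by their sample titles, and no measured value entered the choice. The cells came from the quadriceps, tibialis anterior and gastrocnemius. WT is the only description of the genotype, and no strain, age, sex or treatment is given in the labels. The other libraries are 4 of FAP WT and the same 3 populations from DKO mice, with 4 FAP, 4 Misc and 2 SMP libraries; the genes missing in DKO are not named in the labels. SMP commonly stands for skeletal muscle progenitors and FAP for fibro/adipogenic progenitors. Misc is the label's own word. The series design text lists FAP, SMP and FB instead and does not say whether Misc is FB, and the sources used here do not say how any of the populations was separated. The replicates are called biological, but no label ties a library to an animal, so p-values measure the spread between libraries. That spread was estimated over all 20 libraries of the fit, FAP and DKO included, and not from the 6 compared libraries alone.

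As background, skeletal muscle is repaired by satellite cells, stem cells that lie under the basement membrane of the fibre and carry the transcription factor Pax7. When activated they switch on Myf5 and Myod1, divide, and fuse into fibres. Tendon cells, at the ends of the muscle, depend on the transcription factors Scx and Mkx, carry the membrane protein Tnmd, and lay down type I collagen together with small proteoglycans that shape its fibrils. Both cell types meet at the muscle-tendon junction.

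Library totals were 17730111, 13564127, 11517695 and 9566333 counts in Misc WT and 10659399 and 9669174 in SMP WT. Levels are given in CPM (counts per 1e+06 of the library total after TMM scaling), and each ± after a mean is an SD over the group's libraries. Fold changes are log2 values of Misc over SMP ± SE, so a negative value is higher in SMP, and each p is edgeR's quasi-likelihood p after Benjamini-Hochberg adjustment over 14179 genes, with n = 4 against 2 libraries unless another contrast is named. A gene was called when its adjusted p was below 0.05. The first principal component of the 6 libraries held 84.7% of their variance and put Misc at −57.4 to −50.7 and SMP at 108.4 and 108.8. Pearson's r across genes, which are no replicates of one another, was 0.984 to 0.987 between Misc libraries, 0.975 between the SMP libraries and 0.846 to 0.857 between a Misc and an SMP library. The population difference reached a large part of the transcriptome. Of the 14179 genes tested, 8591 were called (60.6%), 4341 higher in Misc (30.6%) and 4250 higher in SMP (30%). By 2-fold or more, 2432 were higher in Misc (17.2%) and 2124 in SMP (15%). At 16-fold or more the counts were 252 and 301, and at 64-fold or more 66 and 84. In 9677 genes (68.2%) the 4 Misc and 2 SMP libraries did not overlap, whatever the test gave. With this background, a call by itself says little, so sizes are given for each gene and per-library values for the main ones.

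**Figure D1:**
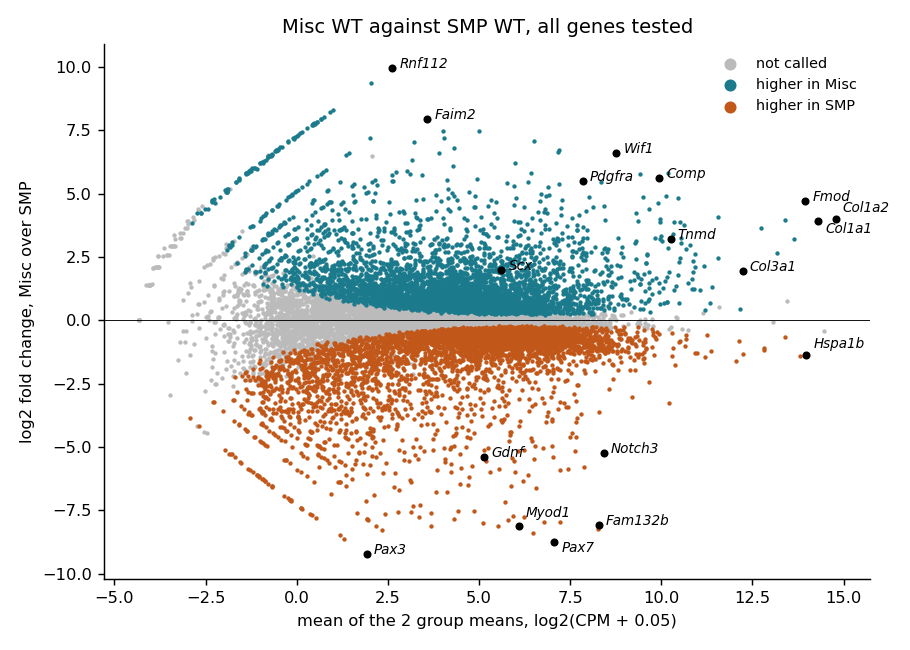
Each point is a gene, with the mean of the Misc WT and SMP WT group means on the x axis (log2 of CPM + 0.05) and the log2 fold change of Misc over SMP on the y axis. Teal genes were called higher in Misc (4341), orange genes higher in SMP (4250), grey genes were not called, and black points carry names; the straight lines of points at the upper and lower left are genes with few or no counts in 1 group, whose fitted folds depend on the prior count.

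The promoters below belong to genes from each end of the comparison, to show what lies at the start of genes chosen for a large difference. An E-box is the sequence bound by basic helix-loop-helix factors, the class that holds both Myod1 and Scx. The windows run from 250 bases before to 50 bases after a start listed for the gene in RefSeq on GRCm38.p6. They read 5′ to 3′ on the gene's strand, with each CANNTG in capitals. Chrna1, the muscle acetylcholine receptor subunit, lies on the minus strand at chr2:73580289-73580588, and Cdh15, the cadherin of muscle progenitors, on the plus strand at chr8:122848124-122848423. Both were among the 15 genes with the largest folds in SMP. Wif1, a secreted Wnt inhibitor and among the 15 largest folds in Misc, is on the plus strand at chr10:121033754-121034053, and the tendon gene Tnmd on the plus strand at chrX:133850758-133851057.
Chrna1: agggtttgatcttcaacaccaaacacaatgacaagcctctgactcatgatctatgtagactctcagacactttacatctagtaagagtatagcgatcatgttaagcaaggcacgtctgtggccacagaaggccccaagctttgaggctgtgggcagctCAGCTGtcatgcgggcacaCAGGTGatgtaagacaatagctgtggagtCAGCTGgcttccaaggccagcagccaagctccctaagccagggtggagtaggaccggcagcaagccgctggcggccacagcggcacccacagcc
Cdh15: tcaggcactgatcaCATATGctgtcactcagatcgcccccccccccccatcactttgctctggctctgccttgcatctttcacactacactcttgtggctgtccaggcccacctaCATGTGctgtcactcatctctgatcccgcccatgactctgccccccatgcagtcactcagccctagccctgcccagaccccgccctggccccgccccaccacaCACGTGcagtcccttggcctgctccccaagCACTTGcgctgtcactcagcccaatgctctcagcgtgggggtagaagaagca
Wif1: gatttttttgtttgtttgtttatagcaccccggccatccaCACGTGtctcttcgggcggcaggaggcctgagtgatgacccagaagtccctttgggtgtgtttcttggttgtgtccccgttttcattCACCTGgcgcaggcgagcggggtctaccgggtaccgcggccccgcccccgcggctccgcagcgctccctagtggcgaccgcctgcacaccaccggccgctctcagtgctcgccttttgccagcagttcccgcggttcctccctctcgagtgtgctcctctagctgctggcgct
Tnmd: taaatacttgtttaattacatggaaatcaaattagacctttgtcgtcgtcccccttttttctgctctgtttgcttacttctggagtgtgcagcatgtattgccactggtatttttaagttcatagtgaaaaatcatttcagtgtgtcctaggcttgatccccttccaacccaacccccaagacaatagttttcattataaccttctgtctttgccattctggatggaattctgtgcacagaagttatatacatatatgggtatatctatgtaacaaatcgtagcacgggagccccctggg
The Chrna1 window held 3 E-boxes, 2 of them CAGCTG. The Cdh15 window held 4, the Wif1 window 2 and the Tnmd window 0. The windows of Pax7 and Myf5, which are also among the 15 SMP genes, each held 0, and that of Fmod held 1. The Pax7 and Myf5 windows lie wholly inside the gene positions used here, so they do not span the outer start of these genes. Of all 32851 promoter windows in the RefSeq table, 72.3% held at least 1 CANNTG on either strand and 16.3% held CAGCTG, which is contained in the wider motif. Of the 15 SMP genes, 13 had a window in the table, with 18 windows in all; 72.2% held CANNTG and 27.8% held CAGCTG. Of the 15 Misc genes, 10 had 13 windows, and 84.6% held CANNTG and 30.8% CAGCTG. The CAGCTG share was thus above the table's on both sides of the comparison, over few windows. A match is a description of letters only.

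The satellite cell markers Pax7 and Myod1 were higher in SMP and nearly silent in Misc, and the tendon markers Tnmd and Scx were higher in Misc and present in both. Pax7 (chromosome 4, 139737059 to 139833530, mm10 as are all gene positions here) stood at 261.9 and 270.5 CPM in the SMP libraries and at 1.53, 0.0789, 0.364 and 0 in Misc replicates 1 to 4. The difference was −8.73 ± 0.42 (adjusted p = 2.6e-11). Myod1 (chromosome 7, 46376474 to 46379092) was at 131.6 and 140.3 CPM in SMP and at 0.943, 0.315, 0.273 and 0.114 in Misc (−8.11 ± 0.51, adjusted p = 1.6e-09). In both genes every SMP library lay far above every Misc library, and Misc replicate 1 was the highest of the 4. Tnmd (chromosome X, 133851008 to 133865577) was at 2532, 2339, 1689 and 2253 CPM in Misc and at 209.2 and 268.2 in SMP (3.21 ± 0.29, adjusted p = 1.2e-08). Scx (chromosome 15, 76457411 to 76459468) was at 81.7, 69, 67.7 and 94.1 CPM in Misc and at 19.9 and 19.1 in SMP (2.00 ± 0.21, adjusted p = 4.7e-08). The groups did not overlap for either gene. The folds of both tendon markers were smaller in size than those of Pax7 and Myod1, and FAP WT, the third population, had 41.2 CPM of Tnmd and 0.725 CPM of Scx. In bulk RNA, fewer cells of a type and less RNA per cell cannot be told apart.

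**Figure D2:**
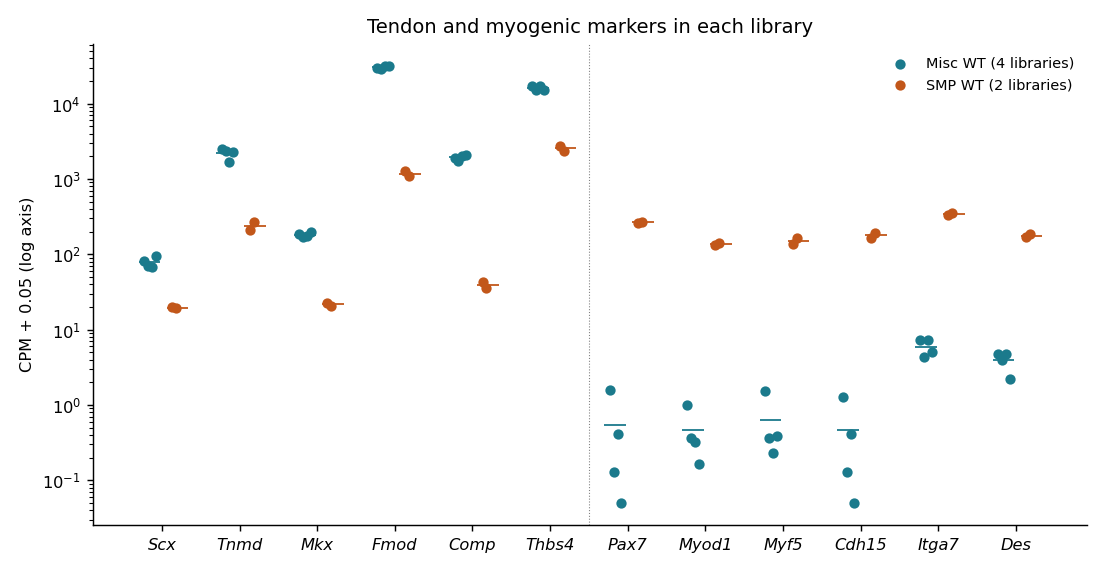
Points are single libraries, 4 of Misc WT (teal) and 2 of SMP WT (orange), with CPM + 0.05 on a log axis and a line at each group mean. The 6 tendon genes on the left lie higher in Misc and the 6 genes on the right higher in SMP, with no overlap; for Pax7, Myod1, Myf5 and Cdh15 the leftmost Misc point, replicate 1, is the highest of the 4.

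Of 26 satellite cell and myogenic regulators, 25 were higher in SMP, 0 were higher in Misc, and Mef2c did not pass (−0.07 ± 0.19). The median of the list was −4.31, against 0.03 over all genes tested. Myf5, which works beside Myod1, was at 138 and 162.8 CPM in SMP and at 1.47, 0.315, 0.182 and 0.341 in Misc (−7.78 ± 0.49, adjusted p = 1.3e-09). Pax3, the paralog of Pax7, had 177 counts in SMP and 0 in the 4 Misc libraries, which makes it at least 123-fold higher in SMP against a floor of 3 counts over the group. The differentiation factor Myog was at 18 and 68 CPM in SMP and 0.471, 0.237, 0 and 0 in Misc (−7.53 ± 0.70, adjusted p = 1.3e-07). The factors of the myogenic programme were therefore present in SMP and near 0 in Misc. Some surface proteins used to recognise satellite cells were also near 0 or low in Misc. The calcitonin receptor Calcr was at 300.9 and 292.4 CPM in SMP and at 2.71, 0.71, 0.364 and 0.114 in Misc (−7.97 ± 0.53, adjusted p = 4.3e-09). Cdh15 was at 166.4 and 193 CPM against 1.24, 0.0789, 0.364 and 0 (−8.41 ± 0.56, adjusted p = 4.1e-09). The laminin receptor Itga7 differed by −5.85 ± 0.24, the chemokine receptor Cxcr4 by −5.05 ± 0.21, and the growth factor receptor Fgfr4 by −5.79 ± 0.37. Other members, surface proteins among them, were shared more evenly. Sdc4 was at 899.1 CPM in SMP and 232.6 in Misc (−1.95 ± 0.16). Ncam1 was at 158 and 71.2 CPM (−1.15 ± 0.16), and Vcam1 at 584.8 and 47 (−3.63 ± 0.15). Megf10, a receptor of satellite cells, was at 295.4 and 335.5 CPM in SMP and 20.2 to 36 in Misc (−3.42 ± 0.23) but at 1.91 in FAP WT. The lectin Chodl was at 971.3 CPM in SMP, 354 in Misc and 5.75 in FAP WT (−1.46 ± 0.22 for Misc over SMP, adjusted p = 1.2e-05). Lbx1, which marks migrating muscle precursors, was higher in SMP as well; it had 176 counts in SMP and 1 in Misc, a ratio of CPM of 366 with a 95% counting interval from 64.9 upward.

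The 15 genes with the largest folds toward SMP, among those with at least 10 CPM in the higher group and libraries that did not overlap, were Pax7, Cdh15, Asb5, Myod1, Fndc3c1, Ephb1, Fam132b, Col19a1, Calcr, Chrdl2, Chrna1, Lmod2, Myf5, Serinc2 and Mybpc1. They spanned −8.73 to −7.74. Fam132b, which encodes the secreted protein erythroferrone, was at 726 and 513.9 CPM in SMP and at 4.42, 1.34, 1.64 and 0.795 in Misc (−8.09 ± 0.43, adjusted p = 2.8e-10). Asb5, an ankyrin repeat gene, was at 664.6 and 570.6 CPM against 3.59, 2.21, 0.911 and 0.568 (−8.25 ± 0.60). Chrdl2, a secreted BMP inhibitor, was at 237.5 and 204.2 CPM against 2, 0.158, 0.455 and 0.454 (−7.94 ± 0.33). In all 3 genes the groups did not overlap and Misc replicate 1 was the highest Misc library. Col19a1, a minor collagen known from differentiating muscle, was at 69.2 and 69.3 CPM against 0.589, 0.0789, 0.182 and 0. In Misc replicate 1 the 15 genes lay at 0.29 to 0.977% of their SMP mean, with a median of 0.696%. Their medians were 0.209, 0.203 and 0.092% in Misc replicates 2, 3 and 4. Replicate 1 was the highest Misc library for 14 of the 15. The part of a few SMP cells in these Misc levels was not tested. In the other direction, the 15 Misc genes lay at a median of 0.686 and 0.898% of their Misc mean in SMP replicates 1 and 2.

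All 12 tendon cell genes were called higher in Misc, with a median of 3.24. Fibromodulin (Fmod), which controls collagen fibril thickness, was at 29861, 29120, 31486 and 31694 CPM in Misc and at 1256 and 1087 in SMP (4.70 ± 0.42, adjusted p = 1.8e-08). Cartilage oligomeric matrix protein (Comp) was at 1900, 1750, 2007 and 2052 CPM against 42.2 and 36 (5.62 ± 0.57, adjusted p = 4.5e-07). Thrombospondin 4 (Thbs4), which assembles the matrix of tendon and of the muscle-tendon junction, was at 17292, 15190, 16947 and 15047 CPM against 2726 and 2367 (2.66 ± 0.23, adjusted p = 8.8e-10). Misc libraries were thus close to one another and well above SMP in all 3 genes. Mkx was at 188.1, 171.1, 174.7 and 197.1 CPM against 22.5 and 20.8 (3.08 ± 0.18, adjusted p = 1.1e-12). Keratocan (Kera), a proteoglycan of tendon and cornea, was at 3154, 2857, 1991 and 2734 CPM against 281.2 and 273.8 (3.27 ± 0.49, adjusted p = 3.2e-05).

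For Scx, Mkx and Tnmd, SMP stood between Misc and FAP WT. The contrasts with FAP share the Misc or SMP libraries with the comparison above, so they are given side by side and not as separate support; 36.9% of genes were called between Misc and FAP (17.6% higher in Misc, 19.3% in FAP) and 62.3% between FAP and SMP (31.1% higher in FAP, 31.3% in SMP). Scx was at 78.1 ± 12.4 CPM in Misc, 19.5 ± 0.588 in SMP and 0.725 ± 0.115 in FAP, and FAP over SMP was −4.72 ± 0.29 (adjusted p = 8.5e-12). Mkx was at 182.7, 21.6 and 1.75 CPM in the same order (FAP over SMP −3.60 ± 0.21, adjusted p = 4.3e-13). Tnmd was at 2203, 238.7 and 41.2 CPM (FAP over SMP −2.53 ± 0.24, adjusted p = 2e-08). The 3 genes were called in all 3 contrasts, in the order Misc, SMP, FAP. Fmod, Thbs4, Kera, the collagen chain Col11a1 and the list members not named here were also called higher in SMP than in FAP. FAP over SMP was −1.92 for Fmod and −3.89 for Col11a1. Only Comp, Cilp and 1500015O10Rik had the reverse order of FAP and SMP. Comp was at 92.6 CPM in FAP against 39.1 in SMP (FAP over SMP 1.24 ± 0.45, adjusted p = 0.026), the matrix gene Cilp at 667.1 against 318.8 (1.07 ± 0.23, adjusted p = 0.00027) and 1500015O10Rik at 9.42 against 2.87 (1.71 ± 0.42, adjusted p = 0.0018). Summed over the 12 tendon genes, the Misc libraries held 59368.0 to 63754.7 CPM, the SMP libraries 5256.3 and 4840.7, and the FAP WT libraries 1348.3 to 1699.0. Whether tendon-type cells were part of the SMP libraries was not tested.

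Most of 15 fibro/adipogenic progenitor genes were also higher in Misc than in SMP, 12 of them, with 0 higher in SMP and 3 not passing (median 3.64). Pdgfra, the receptor that marks these cells, was at 410.9, 473.2, 485.2 and 429.9 CPM in Misc and at 9.32 and 10.4 in SMP (5.51 ± 0.67, adjusted p = 3.8e-06), and at 1210 in FAP WT. The surface genes Ly6a (5.47 CPM in Misc, 7.52 in SMP, −0.41 ± 0.74) and Cd248 (6.29 and 2.64, 1.25 ± 0.60, adjusted p = 0.085) did not pass, while FAP WT held 612.1 and 477.9 CPM of them. Dermatopontin (Dpt), a small collagen-binding protein, did not pass either (309.7 and 275.9 CPM, 0.17 ± 0.16). Misc therefore held Pdgfra far above SMP, and Ly6a and Cd248 at a small part of their FAP WT level. Cd248 was called with DESeq2's Wald test (adjusted p = 0.037) and with only the 6 libraries in the fit (0.0021).

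Type I collagen made up much of the difference in RNA. Col1a1 (chromosome 11, 94936224 to 94953042) was at 35849, 35085, 35705 and 46014 CPM in Misc and at 2330 and 2663 in SMP (3.93 ± 0.30, adjusted p = 1.6e-10). Col1a2 (chromosome 6, 4505618 to 4541543) was at 51208, 50878, 47946 and 61596 CPM against 3017 and 3655 (3.99 ± 0.30, adjusted p = 8.5e-11). Misc replicate 4 was the highest library for both chains. Type III collagen, Col3a1, was at 7984, 8173, 7910 and 6383 CPM against 2038 and 1937 (1.94 ± 0.21, adjusted p = 3.6e-08), and at 27518 in FAP WT. Together the 3 genes took 8.73 to 10.5% of all counts in a Misc library and 0.85 and 0.97% in an SMP library. Per kilobase of exon, Col1a1 stood at 5815 CPM in Misc and Col3a1 at 775.6, while in FAP WT Col1a1 stood at 1358 and Col3a1 at 2803. The ratio of the type I to the type III chain was thus on opposite sides of 1 in Misc and FAP.

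All 11 fibrillar collagens were higher in Misc (median 1.94). They include Col2a1 and the type XI chains, known from cartilage: Col2a1 was at 254.5, 231.8, 251.4 and 291 CPM against 30 and 23.8 (3.26 ± 0.50, adjusted p = 4.4e-05), and at 1.39 in FAP WT. Col11a2 differed by 3.93 ± 0.45 and Col11a1 by 2.26 ± 0.20. The cartilage-type list as a whole was less uniform, with 7 of 12 tested members higher in Misc and 1 higher in SMP. Matrilin 3 (Matn3) was at 60.5, 61.8, 57.6 and 60.5 CPM in Misc and at 0.405 and 2.1 in SMP (5.6 ± 0.42). Sox9, the transcription factor of cartilage, was the member higher in SMP, at 90.8 against 33.2 CPM (−1.45 ± 0.13, adjusted p = 1.4e-09). Its groups did not overlap.

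Genes that shape, cross-link and bind collagen were mostly higher in Misc. All 15 small leucine-rich proteoglycans that could be tested were higher in Misc (median 3.27), among them Lum (4.86 ± 0.57) and Podn (4.72 ± 0.68). Decorin (Dcn), which binds type I collagen, was at 19948 to 20715 CPM in Misc and at 1187 and 1374 in SMP (3.98 ± 0.37). Of 28 collagen-modifying enzymes, 27 were higher in Misc (median 1.91) and Adamts14 did not pass (0.16 ± 0.18). Lysyl oxidases cross-link the fibre, and Loxl4 was at 506.9, 442.7, 395.2 and 465.6 CPM against 8.84 and 11.7 (5.47 ± 0.39, adjusted p = 3.2e-09). Lox itself differed by 3.90 ± 0.23. Of 24 elastic fibre and other glycoprotein genes, 21 were higher in Misc. Of 20 matricellular genes, 19 were higher in Misc (median 2.49) and periostin (Postn) was higher in SMP, at 1157 against 560.5 CPM (−1.05 ± 0.26, adjusted p = 0.0021).

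Basement membrane genes and their receptors divided between the populations. Of 22 basement membrane genes, 15 were higher in Misc, and 3 were higher in SMP, among them laminin α5 (Lama5, at 92.3 against 10 CPM, −3.20 ± 0.38) and agrin (Agrn, −0.52 ± 0.16, but not called without SMP replicate 1, adjusted p = 0.079). Of the other collagens, 15 of 24 were higher in Misc and 5 higher in SMP, namely Col19a1, Col7a1 (−2.15 ± 0.31), Col22a1 (−1.17 ± 0.31), Col20a1 (−1.16 ± 0.21) and Col26a1 (−0.73 ± 0.29). The last was not called without SMP replicate 2 (adjusted p = 0.38), without any 1 of Misc replicates 1, 2 and 3 (0.068 to 0.1) or with no filter on low counts (0.08). Col22a1, a collagen of the muscle-tendon junction, was at 451.7 CPM in SMP, 200.4 in Misc and 2.72 in FAP WT. Among 19 integrins, 12 were higher in Misc and 4 in SMP. The collagen receptor Itga2 was at 180.6, 164.8, 147 and 146.2 CPM in Misc and at 2.11 and 5.08 in SMP (5.48 ± 0.40, adjusted p = 4.3e-09). Itga11, another collagen receptor, differed by 4.76 ± 0.38, and Itga1 and Itga10 by 1.26 ± 0.17 and 0.83 ± 0.13. On the other side stood the laminin receptor chains Itga7, Itga6 (−3.05 ± 0.31) and Itgb4 (−5.05 ± 0.34). All 4 collagen-binding α chains were therefore called higher in Misc and these 3 laminin receptor chains higher in SMP, while Itga3, another laminin receptor chain, did not pass (−0.48 ± 0.34); the grouping was chosen after the values were seen.

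**Figure D3:**
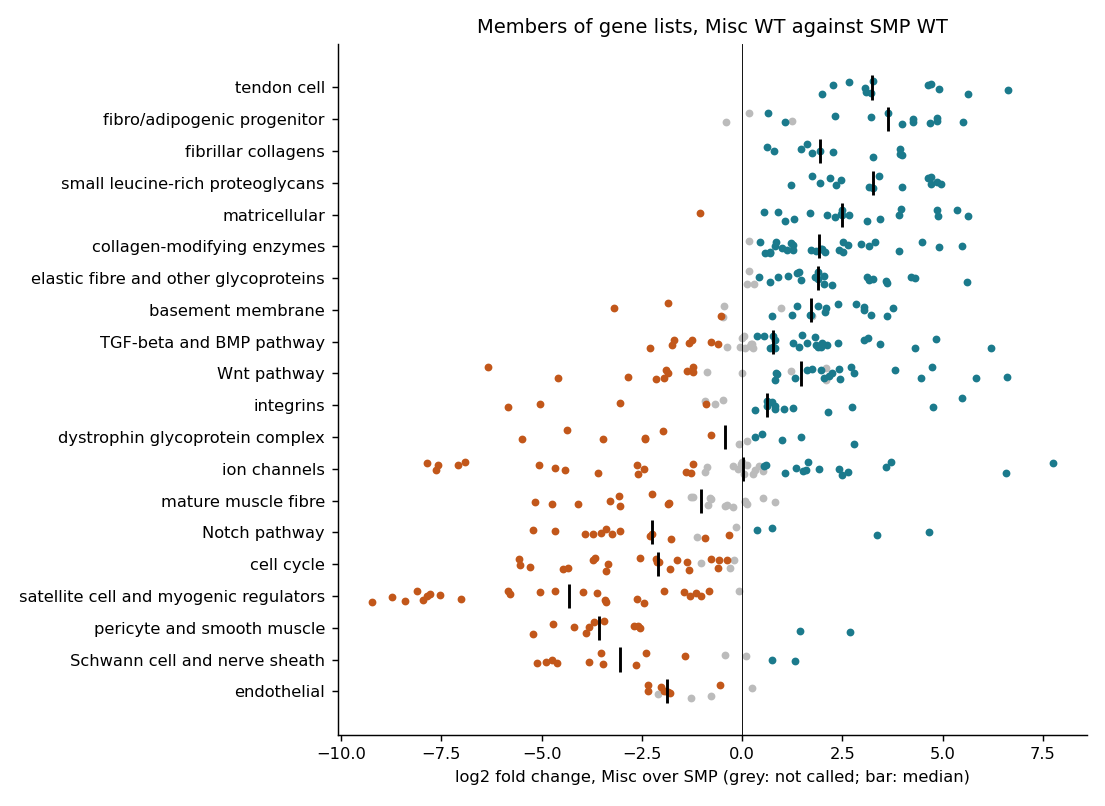
Each point is a tested member of a gene list at its log2 fold change of Misc over SMP, coloured when called (teal higher in Misc, orange higher in SMP) and grey when not, with a bar at the list's median. Matrix lists lie to the right of 0 and myogenic, Notch and cell cycle lists to the left, while ion channels and the dystrophin complex have called members on both sides.

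Genes that link the cytoskeleton to the membrane were called in both directions, and the muscle-restricted ones named here were higher in SMP. Desmin (Des), the intermediate filament of muscle, was at 170.9 and 183.7 CPM in SMP and at 4.66, 3.94, 4.74 and 2.16 in Misc (−5.47 ± 0.18, adjusted p = 5.4e-17). Dystrophin (Dmd) was at 250.3 and 273.4 CPM against 25.7, 21.8, 22.5 and 24 (−3.48 ± 0.14, adjusted p = 1.5e-15). Of 14 genes of the dystrophin glycoprotein complex, 7 were higher in SMP and 5 in Misc (median −0.43), and of 13 intermediate filament, nesprin and lamin genes 5 were higher in SMP and 4 in Misc (median −0.25). These shares were 50% and 35.7% for the complex and 38.5% and 30.8% for the second list. Over all genes they were 30% and 30.6%, so the second list lay near the background. In the first list the sarcoglycans divided by type. Sgca, restricted to striated muscle, differed by −5.48 ± 0.38, while Sgce (1.47 ± 0.12) and Sgcd (2.79 ± 0.21), which are also found outside striated muscle, were higher in Misc. Syne1, whose product nesprin 1 anchors nuclei, was slightly higher in Misc (0.51 ± 0.15, adjusted p = 0.0051), though not without SMP replicate 2 (0.083). Of 22 genes of the mature fibre, 9 were higher in SMP (40.9%, against 30% over all genes), 0 were higher in Misc and 13 did not pass (median −1.03). Their summed level was 281.1 and 322.8 CPM in SMP and 47.3 to 59.7 in Misc. The α-actinin Actn3 was at 105.6 and 114.6 CPM in SMP against 3.18 to 4.54 in Misc (−4.75 ± 0.21), the calcium pump Atp2a1 at 68.5 and 80.4 against 2.61 to 5.25 (−4.10 ± 0.22), and the calcium release channel Ryr1 at 20.8 and 22.6 against 0.315 to 0.943 (−5.16 ± 0.35).

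Of 19 genes of the Notch pathway, which is known to keep satellite cells from differentiating, 13 were higher in SMP and 4 in Misc (median −2.25). The ligand Dll1 was at 82.4 and 111.6 CPM in SMP and at 5.95, 6.07, 6.74 and 7.27 in Misc (−3.91 ± 0.17). The receptors Notch3 (702.4 and 636.7 CPM against 23.2, 14.3, 17.2 and 16.5, −5.23 ± 0.27) and Notch1 (−3.24 ± 0.21) followed. The target gene Hey1 was at 159.2 and 170.4 CPM against 6.6, 6.07, 7.92 and 5.34 (−4.66 ± 0.13, adjusted p = 6e-18), and Heyl at 307.3 and 301 against 32.4, 26.4, 30.1 and 25.5 (−3.40 ± 0.18). The 4 Notch genes higher in Misc were Rbpj (0.38 ± 0.11), Rfng (0.75 ± 0.16), Dlk1 (3.35 ± 0.51) and Dner (4.67 ± 0.64). Notch3 is also a marker of pericytes, and 10 of 12 pericyte and smooth muscle genes were higher in SMP, 2 in Misc. Their summed level was 1736.5 and 1707.6 CPM in SMP and 560.8 to 694.6 in Misc, with smooth muscle myosin (Myh11) at 248.9 and 233.3 CPM in SMP against 5.9 to 25.6 in Misc. The part of such cells in the Notch values was not tested.

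Markers of other cell types differed from list to list. The shares higher in SMP were 71.4% for Schwann cell, 58.3% for endothelial and 20.0% for immune genes, against 30% over all genes. Of 14 Schwann cell genes, 10 were higher in SMP and 2 in Misc (median −3.06). Their summed level was 663.7 and 689.0 CPM in SMP and 452.8 to 480.0 in Misc. The neurotrophic factor Gdnf was at 82.6 and 56 CPM in SMP and at 1.53, 1.5, 2.28 and 1.25 in Misc (−5.39 ± 0.21, adjusted p = 1.3e-15), and whether it came with the nerve-sheath markers was not tested. Of 12 endothelial genes, 7 were higher in SMP, but 0 without SMP replicate 1, 4 without SMP replicate 2, 3, 4 and 3 without Misc replicates 2, 3 and 4, 2 with a replicate block in all groups, 1 at an adjusted p below 0.01, and 11 with only the 6 libraries in the fit. Their summed level was 349.9 and 259.8 CPM in SMP against 104.1 to 142.8 in Misc. Of 10 tested immune genes, 2 were higher in SMP, and their summed level was 29.4 and 20.9 CPM in SMP against 13.4 to 20.0 in Misc. Of 7 erythroid genes, 6 were under the filter on low counts. The SMP libraries therefore held measurable RNA of pericyte, Schwann and endothelial genes and little of immune genes. The other populations held such RNA too. In FAP WT the endothelial list summed to 317.0 to 426.6 CPM, the Schwann list to 482.7 to 551.3 and the pericyte list to 417.4 to 585.2.

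Cell cycle genes were higher in SMP, 21 of 24, with 0 higher in Misc (median −2.1). The proliferation marker Mki67 was at 40.8 and 100.9 CPM in SMP and at 1.47, 1.18, 1.09 and 2.38 in Misc (−5.56 ± 0.42, adjusted p = 7.9e-09). Top2a, which untangles DNA in dividing cells, differed by −5.29 ± 0.46. The SMP libraries differed from each other by more than the 4 Misc libraries did in Mki67, without overlap between the groups.

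In the Wnt, BMP, chemokine and axon guidance lists more members were higher in Misc than in SMP. The shares higher in Misc were 55.9%, 60%, 43.8% and 65% in that order, against 30.6% over all genes. Those higher in SMP were 29.4%, 17.5%, 21.9% and 22.5%, against 30%, so the Wnt share in SMP lay near the background. Of 34 Wnt pathway genes, 19 were higher in Misc and 10 in SMP (median 1.47). Wif1, which binds Wnt proteins outside the cell, was at 880.7, 743.9, 833.6 and 990.6 CPM in Misc and at 8.59 and 9.2 in SMP (6.60 ± 0.69, adjusted p = 8.7e-07), and at 7.36 in FAP WT. The Wnt inhibitor Dkk2 was at 165.3, 199.2, 156.4 and 160.1 CPM against 4.05 and 1.84 (5.83 ± 0.42), and Sfrp2 differed by 4.47 ± 0.42. A further inhibitor, Sfrp5, ran the other way, at 42.2 and 54.6 CPM in SMP against 1.7 to 2.64 in Misc (−4.59 ± 0.34). Both populations hence held Wnt inhibitors, of different genes. Of 40 TGF-beta and BMP genes, 24 were higher in Misc and 7 in SMP (median 0.77). Of the ligands, Bmp3 (4.84 ± 0.53) and Bmp7 (4.30 ± 0.43) were higher in Misc. Among 32 chemokine and cytokine genes, 14 were higher in Misc and 7 in SMP, the latter 4 without Misc replicate 1 and 3 without SMP replicate 1. Cxcl14 was at 1357, 1579, 1194 and 1235 CPM in Misc against 28.4 and 21.2 (5.76 ± 0.55). Of 40 axon guidance genes, 26 were higher in Misc and 9 in SMP (median 1.05). The guidance protein Sema3a, which repels growing axons, was at 237.2, 210.4, 197.6 and 233.1 CPM in Misc against 10.1 and 13.6 (4.22 ± 0.27), and at 9.13 in FAP WT. Ephb1, a guidance receptor, was on the SMP side (27.6 and 23.4 CPM against at most 0.118, −8.10 ± 0.52).

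The 15 genes with the largest folds toward Misc under the same rule included Rnf112, Faim2, Cpz, Lect1, Ces1d, Pappa2, A2m, Cntn1, Dpep1, Wif1, Mmp13, Chst5, Crtac1 and Trhde. Rnf112, a ring finger gene, was at 14.9, 9.62, 11.5 and 12.6 CPM in Misc with 0 counts in SMP, and so at least 98-fold higher in Misc. Faim2, an inhibitor of cell death known from neurons, was at 23.6, 21.9, 21.9 and 26.9 CPM with 2 counts in SMP, a CPM ratio of 277 with a 95% counting interval from 76.6 to 2.29e+03. Pappa2, which cleaves IGF binding proteins, was at 250.5, 209.1, 150.4 and 108.8 CPM against 1.13 and 1.49 (7.09 ± 0.66, adjusted p = 1.9e-07). These genes were nearly silent in SMP while their Misc levels varied by up to several fold between libraries, most in A2m, at 14.2, 6.31, 37.2 and 15.4 CPM with 3 counts in SMP. Chst5, a sulfotransferase that modifies sugar chains, was at 21.8, 17.4, 16.4 and 15 CPM against 0.324 and 0.0877 (6.32 ± 0.48), and Crtac1, a cartilage protein, at 40.1, 33.2, 41.5 and 38.5 against 0.405 and 0.701 (6.10 ± 0.39). Chst5, Crtac1 and Wif1 were also near 0 or low in FAP WT (0.155, 0.688 and 7.36 CPM). Dpep1, a dipeptidase, was instead at 689.4 CPM in FAP WT and 288.6 in Misc, and Ces1d, a lipase of fat tissue, at 72.5 and 32.4. Among the 15 genes, 11 were called higher in Misc than in FAP WT and 2 lower.

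Positional genes of the Hox clusters, which carry information on place along the body and limb, differed by cluster. The Hox and limb list had 18 of 42 tested members higher in Misc (42.9%) and 11 in SMP (26.2%), against 30.6% and 30% over all genes. Of 9 tested Hoxa genes, 5 were higher in SMP and 0 in Misc, and of 7 Hoxc genes 4 and 0. Of 7 Hoxd genes, 5 were higher in Misc and 0 in SMP, and of 4 Hoxb genes 2 and 0. Hoxd13 was at 4.54, 3.55, 2.73 and 3.41 CPM in Misc against 0 and 0.263 in SMP, where it had 3 counts (ratio of CPM 29.1, with a 95% counting interval from 9.81 to 143, adjusted p = 1.2e-06). Hoxc10 was at 63.3 CPM in Misc and 123.4 in SMP (−0.96 ± 0.10, adjusted p = 2.3e-08), and Hoxa10, next to the Hoxa genes that differed, did not pass (0.24 ± 0.19). The split by cluster was noticed after the values were seen. The limb factors Tbx5 (5.1 to 6.55 CPM in Misc, 0 and 0.351 in SMP, 4.93 ± 0.48) and Pitx1 (3.65 ± 0.42) were higher in Misc.

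**Figure D4:**
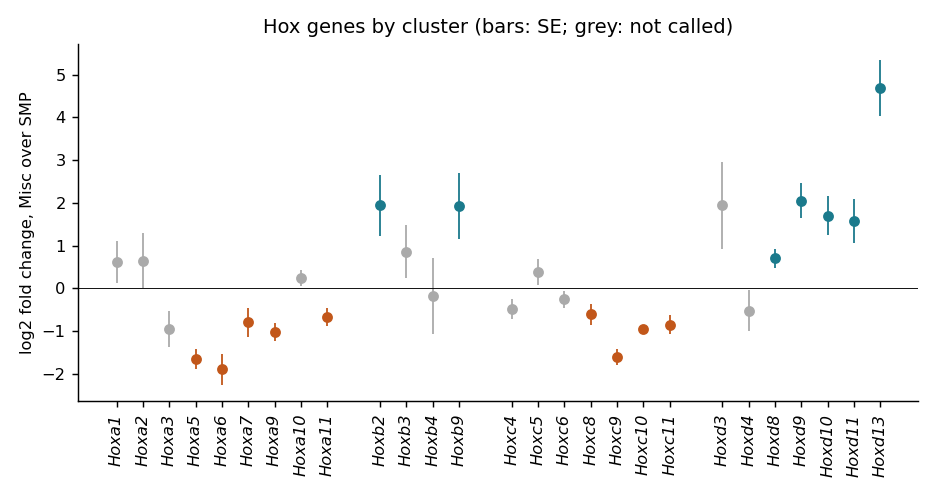
Log2 fold change of Misc over SMP (points, bars are SE) for each tested Hox gene in cluster order; teal and orange points were called, grey points were not. Called Hoxa and Hoxc genes lie below 0 (higher in SMP) and called Hoxb and Hoxd genes above 0 (higher in Misc).

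Ion channels were divided evenly, with 15 of 42 tested members called in each direction (median 0.02). Misc held the T-type calcium channel Cacna1g (316 against 23.9 CPM, 3.72 ± 0.22), and SMP the acetylcholine receptor chain Chrna1 (87.1 and 133 CPM against 0 to 0.766, −7.86 ± 0.41). Of 25 enzymes and transporters of carbohydrate use, 8 were higher in Misc and 12 in SMP, with the kinase Pdk4, which holds back pyruvate oxidation, at 383 CPM in SMP against 26.5 in Misc (−3.85 ± 0.16). These shares were 35.7% each way for ion channels and 32% and 48% for carbohydrate use, against 30.6% and 30% over all genes.

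Ranked by difference in CPM, the SMP side was led by chaperones and translation factors: Hspa1b, Hspa1a, Hsp90aa1, Eef1a1, Hspa8, Hsph1, Hsp90ab1, Hspa5, Eef2 and Dnajb1. Hspa1b (chromosome 17, 34956429 to 34959238), an inducible heat shock protein, was at 25065 and 21239 CPM in SMP and at 7517, 8231, 9857 and 10180 in Misc (−1.37 ± 0.16, adjusted p = 1.2e-07). Its near-identical copy Hspa1a was at 22508 and 19035 CPM against 6321, 7122, 8661 and 8979 (−1.42 ± 0.17), and the counting could split reads between the 2 genes. Eef1a1, which brings tRNA to the ribosome, was at 8986 and 10910 CPM against 4137, 4569, 4485 and 4541 (−1.17 ± 0.12). Of 26 immediate early and dissociation genes, 11 were higher in Misc and 9 in SMP (median 0.19). These shares were 42.3% and 34.6%, against 30.6% and 30% over all genes. On the Misc side the 10 genes were Col1a2, Col1a1, Fmod, Sparc, Dcn, Thbs4, Gsn, Col3a1, Serpinf1 and Thbs1.

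The same contrast in DKO mice compares 4 Misc DKO with 2 SMP DKO libraries. None of these is in a WT group mean or fold, but they share the filter, scaling and spread estimate of the fit. The 2 SMP DKO libraries differed from each other: the summed level of the fibro/adipogenic progenitor list was 2402 CPM in replicate 1 and 11695 in replicate 2, and that of the endothelial list 135.6 and 760.8. Pdgfra was at 10.1 and 111.7 CPM in them. The part of such RNA in the DKO values was not tested, and differences between genotypes are therefore also given without replicate 2. In DKO, 59.5% of genes were called, 29.8% higher in Misc and 29.7% higher in SMP. Of the 4341 genes higher in Misc in WT, 3194 were called in the same direction in DKO, and of the 4250 higher in SMP 3228. All 15 genes with the largest folds toward SMP were called again, and 14 of the 15 toward Misc; Mmp13, a collagenase, did not pass in DKO (1.72 ± 0.90, adjusted p = 0.11). Of the 10 genes with the largest CPM difference toward Misc all 10 were called again, and of the 10 toward SMP 6. The 4 that were not were Hspa8, Hsp90aa1, Hspa1a and Hspa1b. Hspa1b was at 15670 ± 1229 CPM in SMP DKO and 15574 ± 2464 in Misc DKO (−0.01). The difference between the WT and DKO contrasts was itself called for 1268 genes (8.94%, with 4.34% higher and 4.61% lower in WT), and for 14 of these 50 genes, among them Hspa1b (−1.36 ± 0.24, adjusted p = 0.00065) and Serinc2 (−5.22 ± 0.47, adjusted p = 1.5e-07). Serinc2 was at 0.0825 CPM in Misc WT but 3.97 in Misc DKO, with SMP at 20.3 and 23.1. Without SMP DKO replicate 2 the difference was −1.45 for Hspa1b and −5.14 for Serinc2, both called, while 8 of the 14 were no longer called: Ces1d, Dpep1, Trhde, Pappa2, Gsn, Thbs1, Hsph1 and Hsp90aa1. Chodl turned round, at 354 CPM in Misc WT and 971.3 in SMP WT against 1095 in Misc DKO and 380.8 in SMP DKO (difference −2.98 ± 0.34, adjusted p = 1.3e-05). All 12 tendon genes were called higher in Misc in DKO as well. The fold of Scx was 3.61 ± 0.25 in DKO against 2.00 ± 0.21 in WT (difference −1.61 ± 0.31, adjusted p = 0.0017), with SMP DKO at 9.62 CPM. Mkx had a difference of −1.06 ± 0.26 (adjusted p = 0.012), while that of Tnmd did not pass (−0.76 ± 0.35, adjusted p = 0.19). The Notch targets Hey1 (difference −2.52, adjusted p = 2e-08) and Heyl (−2.53, adjusted p = 4.4e-06) had folds further from 0 in WT than in DKO. Periostin (Postn) and Col22a1, called higher in SMP in WT, were called higher in Misc in DKO (2.85 ± 0.32 and 2.38 ± 0.36), with differences of −3.89 (adjusted p = 5.4e-06) and −3.55 (adjusted p = 0.00016). Each difference called in these last sentences was called without SMP DKO replicate 2 as well, and all but that of Mkx (adjusted p = 0.052) without SMP WT replicate 1.

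**Figure D5:**
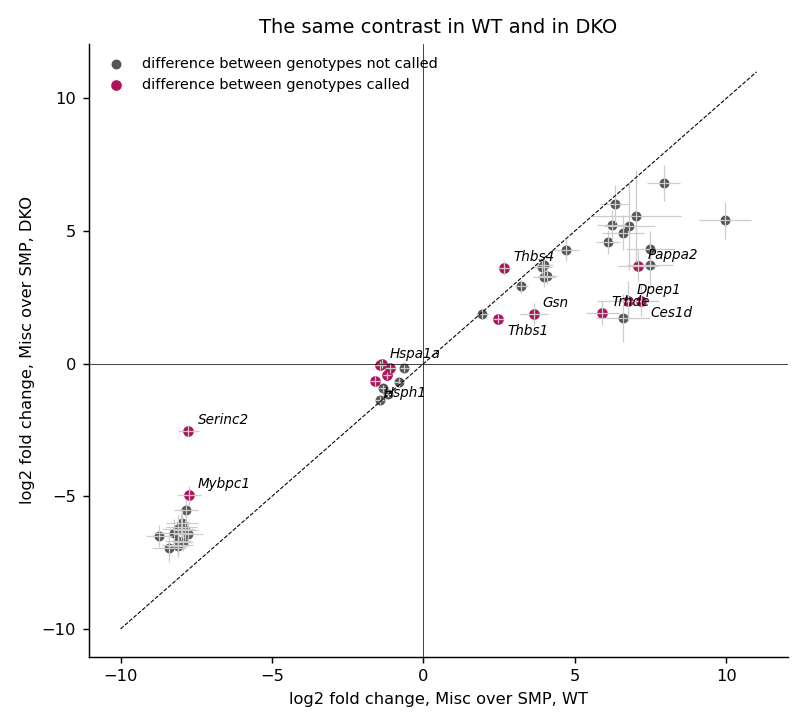
Log2 fold change of Misc over SMP in WT (x axis) and in DKO (y axis) for the genes with the largest folds or CPM differences in WT, with SE bars and a dashed line of equality. The genes were chosen by their WT values. The 14 genes whose difference between genotypes was called are in magenta, and Hspa1a and Hspa1b lie at −0.06 and −0.01 in DKO.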

How the data were processed

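RNA-seq gene counts of 20 libraries were used, 6 of them in the comparison. Per the series design text, RNA was sequenced on an Illumina HiSeq, aligned to mm10 with OSA and counted against RefSeq genes; per the submitters' processing notes, the authors used DESeq2. The deposited values are raw counts per gene, with no normalization. The sources used here state neither strand use nor how replicates relate to animals.

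Counts were tested with edgeR 4.0.16 (limma 3.58.1, R 4.3.3) by the quasi-likelihood test with TMM scaling, all 6 groups in the fit and no block. The low-count filter (filterByExpr, minimum count 10) left 14179 of 24393 genes; a gene was called at a Benjamini-Hochberg adjusted p below 0.05. On simulated counts for 13605 genes, 85% of 100 genes changed 2-fold and 100% of 100 genes changed 4-fold were recovered, with 8 unchanged genes called. The changed genes were drawn from those above a low level, and all other genes had the same mean in every group. In the real comparison 60.6% of genes were called, so these rates need not hold there. Blank symbols (25) and symbols turned into dates (27) were restored by gene identifier. Intervals and floors cover counting error only.

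Genes were named by rule: the 15 each way with the largest folds among called genes with at least 10 CPM in the higher group and no overlap, the 10 each way with the largest CPM difference, up to 6 called genes per list, and all tendon, satellite and progenitor list members. Chosen after their values were seen were Adamts14, Agrn, Cacna1g, Col20a1, Col22a1, Col26a1, Col7a1, Dlk1, Hoxa10, Hoxc10, Itga1, Itga3, Itga10, Notch1, Postn, Rbpj, Rfng, Sgce and Sox9. Some genes that the rule names are not reported here. The members and lists were chosen with earlier results of these data known. Alternatives were DESeq2 1.42.0 (size factors, Wald test), upper-quartile factors, no filter, only the 6 libraries, replicate blocks, thinned counts, stricter thresholds and leaving out each library; leaving out the DKO libraries was added after the data were seen. The numbers were not taken as pairs, since no label ties them to animals. Same-numbered SMP and Misc libraries correlated at −0.04 and 0.04 in their deviations from group means. With 2 SMP libraries these deviations mirror each other, so the check cannot decide on pairing. The values furthest from 0 were 0.15 and −0.15, for SMP replicates 1 and 2 with Misc replicate 3.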

Additional observations from a re-analysis of the deposited data

Results flagged for a closer look

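In 10 of the 129 genes named and tested for it (7.75%), 1 of the 4 Misc WT libraries stood apart from the other 3 by Dixon's criterion (0.829 for 4 samples); chance gives about 5%. In 5 of the 10 it was replicate 1, with Mybpc1 at 1.12, Myf5 at 1.47, Chrdl2 at 2, Lbx1 at 0.0589 and Bmp7 at 21.4 CPM. The first 4 are genes high in SMP. Lbx1 had 1 count over the 4 Misc WT libraries, which by itself sets replicate 1 apart. The rate of about 5% is for normal values and need not hold for counts near 0. In replicate 2 these were Tbx5 at 6.55, Cd248 at 4.81 and Dpt at 376 CPM. In replicate 4 they were Col1a1 at 46014 and Col3a1 at 6383 CPM.

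The difference between Misc and SMP itself differed between WT and DKO for 34 of the 129 genes (26.4%). Over all genes tested the share was 8.94% (edgeR, adjusted p below 0.05). Many of the genes were chosen for their size in WT. Others, such as Postn, Col22a1 and Adamts14, were chosen after their values were seen, so the shares are not on an equal footing. Of the 34, 18 were still called without SMP DKO replicate 2, in which the fibro/adipogenic progenitor list summed to 11695 CPM against 2402 in replicate 1. Without SMP WT replicate 1, 20 were still called, and without SMP WT replicate 2, 22. Values below are log2, WT minus DKO. Among genes higher in Misc, a wider gap in WT was found for Ces1d (4.81), Dpep1 (4.37), Trhde (3.99), Pappa2 (3.40), Sfrp2 (3.02), Pdgfra (2.99), Dkk2 (2.88), Dlk1 (2.65), Cxcl14 (2.13), Sema3a (2.02), Gsn (1.78) and Thbs1 (0.78). Of these 12, all but Sema3a were not called without SMP DKO replicate 2, where Dpep1 had the opposite sign (−0.72). The gap was narrower in WT for Itga10 (−2.04), Scx (−1.61), Mkx (−1.06), Col11a1 (−1.03) and Thbs4 (−0.95). Among genes higher in SMP, it was wider in WT for Serinc2 (−5.22), Mybpc1 (−2.77), Heyl (−2.53), Hey1 (−2.52), Hspa1b (−1.36), Hspa1a (−1.36), Notch1 (−1.23), Dmd (−1.08), Hsph1 (−0.94), Hsp90aa1 (−0.93), Dnajb1 (−0.77) and Hoxc10 (−0.50), and narrower for Sox9 (0.64); of these, Notch1, Hsph1, Hsp90aa1, Hoxc10 and Sox9 were not called without that library. Postn (−3.89), Col22a1 (−3.55) and Chodl (−2.98) were higher in SMP in WT and in Misc in DKO. Adamts14 (1.85) was at 0.16 in WT and −1.69 in DKO.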

How the results depend on the processing

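Of 129 named genes put through the alternatives, 111 kept their direction and side of the threshold under all 23 of them. At a 2-fold threshold 16 did not pass. Sdc4, Ncam1 and Vcam1 were not among the 129. Testing against a 2-fold threshold left 1488 genes higher in Misc and 1249 in SMP, fewer by its construction. Leaving out 1 library at a time gave 3738 to 4588 genes higher in Misc and 3524 to 4381 in SMP, the lowest without SMP WT replicate 1; the DKO libraries, which share the fit, were left out in turn as alternatives chosen after seeing the data. No gene called in both the reported fit and an alternative changed direction, and 80.2% (without SMP WT replicate 1) to 99.6% (without an SMP DKO library) of the 8591 calls were kept, apart from 31.9% at the 2-fold threshold. With the replicate block, 3836 genes were higher in Misc and 3644 in SMP in the 6 libraries, and 4376 and 4158 with all groups; the numbers do not pair the samples by any label. For the difference between genotypes, 615 genes were higher and 653 lower in WT; leaving out 1 library at a time gave 335 to 946 and 408 to 647. The higher count was 335 without SMP DKO replicate 2, 946 without SMP DKO replicate 1, 374 without SMP WT replicate 1 (408 lower) and 382 without SMP WT replicate 2. The cause was not tested. Mef2c, not called, was at 0.09 without SMP replicate 1 and −0.21 without SMP replicate 2. With 2 SMP libraries the SMP spread rests on few samples, and genes with few counts in either group have imprecise folds.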
